A study of Mus musculus with 6 samples.

Results

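Collagen chain genes encode the proteins that wind, 3 chains at a time, into the fibres, sheets and filaments of the extracellular matrix. They were chosen by name: every row whose gene symbol is Col, a number, a and a second number was taken, whatever its expression. The pattern found 44 of the 21899 rows of the deposited table. By known structure they comprise 11 fibrillar chains, 6 basement membrane chains of type IV, 6 beaded filament chains of type VI, 9 fibril-associated chains with interrupted helices (FACIT), 4 transmembrane chains, 3 short chain network formers, 2 multiplexins, the anchoring fibril chain Col7a1, and 2 others, Col26a1 and Col28a1. The RNA came from mouse colon in 3 libraries from Adamts4 knockout animals (KO 1 to KO 3) and 3 from wild-type animals (WT 1 to WT 3). All animals of both genotypes had received 2.5% dextran sodium sulfate (DSS) for 7 days, so no library shows the colon without DSS. ADAMTS4 is a secreted protease best known for cutting the proteoglycan aggrecan. The knockout allele, the cells in which it acts, the strain, the sex and the age of the animals were not recorded in the sources used here.

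As background, fibroblasts make most fibrillar collagen of the gut wall. Types I and III form the load-bearing fibrils of the submucosa, and type V sits within them and limits their width. Type IV forms the mesh of basement membranes under epithelium, around vessels and around smooth muscle cells. DSS damages the colon epithelium, and the matrix is broken down and rebuilt as the injury proceeds.

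The libraries held 15786214 to 20348172 counts in KO colon and 17895970 to 22932125 counts in WT colon. Adamts4, the targeted gene, had 0 counts in KO 1, KO 2 and KO 3, against 900, 992 and 997 counts in WT 1, WT 2 and WT 3 (edgeR adjusted p = 0.00213), which goes with the labels. The labels do not say whether the libraries of a genotype came from separate animals, so p-values measure only the spread between these libraries. In bulk tissue, fewer cells of a type and less RNA per cell cannot be told apart. Epithelial markers summed to 11745, 11611 and 13888 CPM (counts scaled to library size, with TMM factors) in KO 1 to KO 3, and to 11863, 11057 and 10322 CPM in WT 1 to WT 3. Smooth muscle markers summed to 3953, 4695 and 4758 CPM in KO 1 to KO 3, and to 3627, 2772 and 2280.3 CPM in WT 1 to WT 3, so both tissues carried the defining markers of colon wall.

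KO 3 stood apart in its collagen content. Collagen genes took 0.666%, 0.399% and 0.122% of all counts in KO 1, KO 2 and KO 3, against 0.609%, 0.437% and 0.726% in WT 1, WT 2 and WT 3. KO 1 lay inside the WT range, KO 2 just under it, and KO 3 far below every other library. KO 3 had the lowest level of the 6 libraries for 27 of the 34 collagen genes that passed the expression filter (79.4%), against 25.7% of all 14553 genes tested. The median collagen gene was 4.04 times higher in KO 1 than in KO 3, whereas the median of all genes tested was 1.006 times. KO 1 was at least 3 times KO 3 for 21 of 34 collagen genes (61.8%, against 4.23% of all genes). Within WT, the highest library exceeded the lowest by 1.77 times for the median collagen gene and by 1.29 times for the median of all genes. KO 1 itself lay within the WT range for 17 of the 34 genes (39.9% of all genes), above it for 10 (30.6%) and below it for 7 (29.4%). Fold changes are therefore given with KO 3 and without it.

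Markers of fibroblasts, endothelium, pericytes and leukocytes had their lowest sums in the same library, while those of smooth muscle did not follow collagen. The 12 fibroblast markers, all of them tested, summed to 1546, 1152 and 466 CPM in KO 1 to KO 3, against 1664, 1324 and 1797 CPM in WT 1 to WT 3. Fn1 was the largest part of this sum, with 759, 490 and 195 CPM in KO 1 to KO 3, against 653, 569 and 705 CPM in WT 1 to WT 3. Thy1 did not follow, with 17.5, 18.6 and 26.0 CPM in KO 1 to KO 3, whereas each of the other markers was lowest in KO 3. The 10 endothelial markers, also all tested, summed to 358, 264 and 117 CPM in KO 1 to KO 3, against 408, 420.2 and 470.2 CPM in WT 1 to WT 3. KO 3 was lowest in both sums, as it was for collagen. Pericyte markers, 6 of 7 tested, summed to 257, 289 and 191 CPM in KO 1 to KO 3, against 514, 380.2 and 428 CPM in WT 1 to WT 3. All KO libraries lay below all WT libraries, and KO 3 was again the lowest. Among them Kcnj8, a potassium channel gene of pericytes, was lower in KO (-2.09 ± 0.28; edgeR adjusted p = 0.0495). Leukocyte markers also had their lowest sum in KO 3, at 442 CPM, against 564 to 1026 CPM in the other libraries. Within that list only Itgam, Lyz2 and Csf1r were lowest in KO 3. Cd79a and Coro1a were highest there, at 35.6 and 64.3 CPM, so the list did not move as a whole. Smooth muscle markers, given above, instead had a higher sum in each KO library than in each WT library, with KO 3 highest and KO 2 close to it. Collagen CPM divided by fibroblast marker CPM was 4.50, 3.39 and 2.68 in KO 1 to KO 3, against 3.59, 3.21 and 4.06 in WT 1 to WT 3, so the groups overlapped. This ratio was added after the data had been seen, and the part that cell content has in the collagen values was not tested beyond it.

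**Figure D1:**
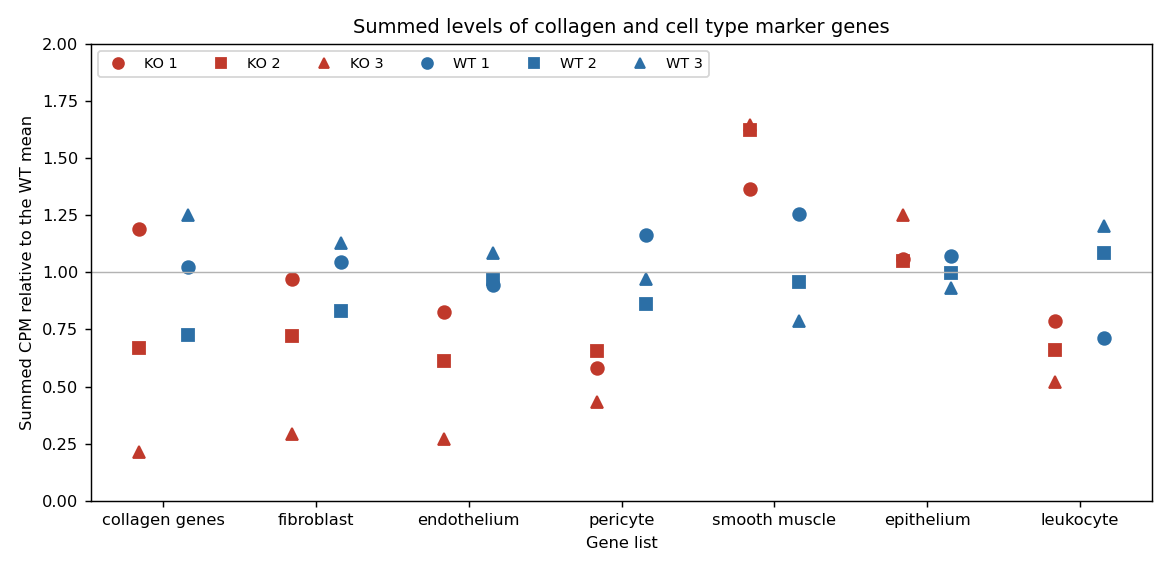
Summed CPM of the collagen genes and of marker lists for fibroblasts, endothelium, pericytes, smooth muscle, epithelium and leukocytes (x axis), each divided by its WT mean (y axis), with a point for each KO and WT library. Collagen stood at 1.19, 0.669 and 0.214 of the WT mean in KO 1, KO 2 and KO 3, and fibroblast markers at 0.969, 0.722 and 0.292.

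No collagen gene was called changed at an adjusted p below 0.05 in the main test, edgeR's quasi-likelihood test adjusted over all 14553 genes. It called 0 of 34 lower in KO, beside 0.151% of all genes, and 0 of 34 higher, beside 0.00687%. At an unadjusted p below 0.05, 5 of 34 were lower (14.7%, against 7.85% of all genes) and 0 were higher (against 5.17%). These 5 were Col18a1, Col20a1, Col23a1, Col5a3 and Col7a1. DESeq2 called 1 collagen gene, Col23a1, lower (2.96% of all genes were called lower) and 0 higher (0.804% of all genes), with 6 lower at an unadjusted p below 0.05 (8.35% of all genes). Limma-voom called 0 lower (0.186% of all genes) and 0 higher (0.0137%), with 5 lower at an unadjusted p below 0.05 (8.37% of all genes). In edgeR, 0 collagen genes were called lower without KO 3 (0.0203% of all genes), without KO 1 (0.196%) or with the replicate number as a block (0.536%).

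Most estimates lay below 0 without passing the test. The log2 fold change, KO over WT, was negative in 28 of 34 collagen genes (82.4%, against 45.8% of all genes), with a median of -0.43 against 0.03 over all genes. Without KO 3 the median was -0.19, and 21 of 34 were negative, beside 46.9% of all genes. Then 3 genes, Col11a2, Col18a1 and Col23a1, were lower at an unadjusted p below 0.05, beside 7.21% of all genes. Without KO 1 it was -0.94, and 13 of 34 were lower at an unadjusted p below 0.05, beside 10.1% of all genes. That count was 1 (Col23a1) without KO 2, beside 6.88% of all genes, and 3 (Col23a1, Col24a1 and Col6a5) without WT 1, beside 6.12%. Col23a1 was thus the 1 gene in this count that recurred in the fits without KO 2, KO 3 and WT 1. The size of the median thus moved most with KO 1 and KO 3, the KO libraries at the ends of the range.

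**Figure D2:**
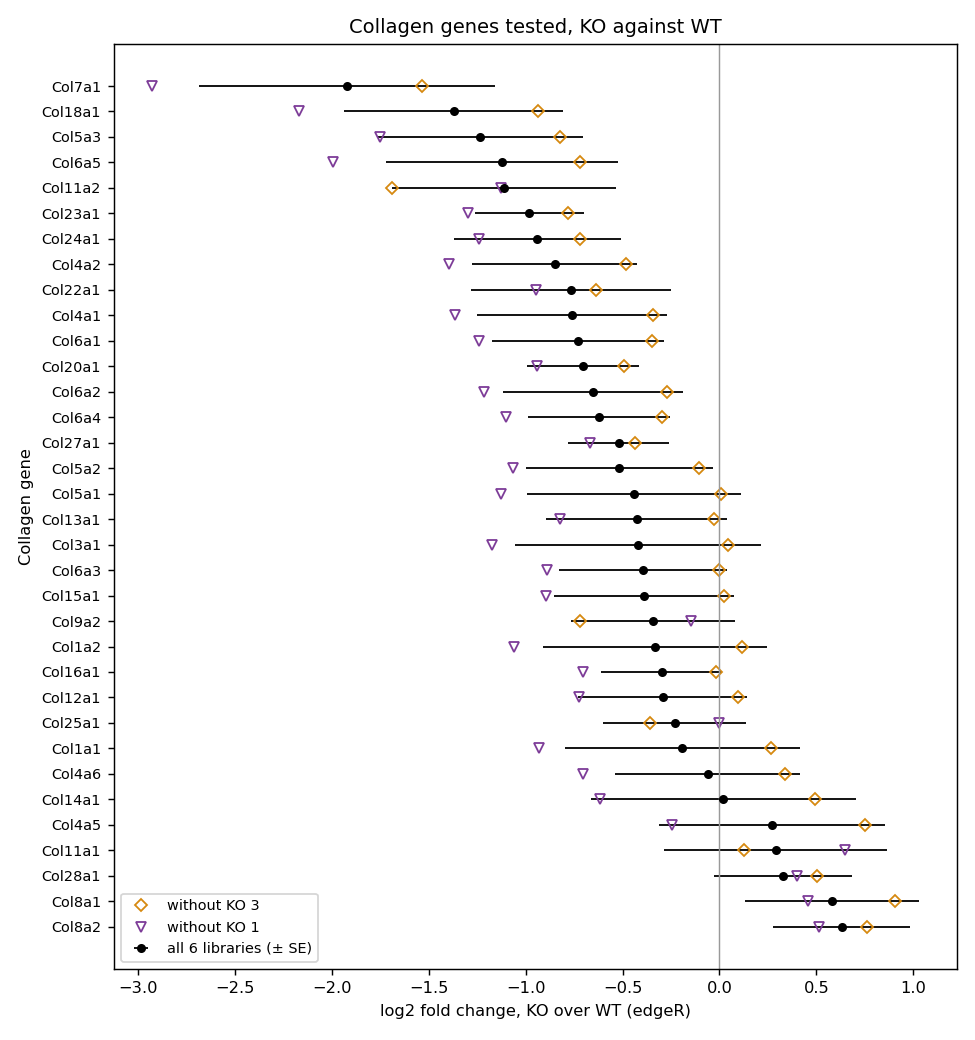
Log2 fold change, KO over WT, of the 34 collagen genes tested (x axis) with genes down the y axis: filled points use all 6 libraries with bars of 1 SE, diamonds leave out KO 3 and triangles leave out KO 1. The median lay at -0.43 with all libraries, at -0.19 without KO 3 and at -0.94 without KO 1.

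The start regions of a few members show how these genes are laid out. RefSeq windows of 300 bases on GRCm38.p6, reaching from 250 bases before an annotated start to 50 after it, were matched for 35 of the 44 genes. Col4a1 and Col4a2 are printed because the pair is transcribed head to head from neighbouring starts on chromosome 8, Col1a2 as the chain of type I collagen with a window, Col18a1 because it separated the genotypes relative to the other collagens, and Col23a1 as the gene called by DESeq2. Capitals mark CCAAT, the box bound by NF-Y, read on either strand (ATTGG on the printed strand when it lies on the other), and TATAAA.
Col4a1, chr8:11312777-11313076, minus strand: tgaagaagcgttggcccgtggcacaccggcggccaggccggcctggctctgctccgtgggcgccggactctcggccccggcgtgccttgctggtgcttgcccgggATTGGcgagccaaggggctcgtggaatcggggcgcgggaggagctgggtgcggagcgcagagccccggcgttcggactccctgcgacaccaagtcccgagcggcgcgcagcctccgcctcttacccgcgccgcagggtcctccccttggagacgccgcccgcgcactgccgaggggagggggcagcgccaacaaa
Col4a2, chr8:11312555-11312854, plus strand: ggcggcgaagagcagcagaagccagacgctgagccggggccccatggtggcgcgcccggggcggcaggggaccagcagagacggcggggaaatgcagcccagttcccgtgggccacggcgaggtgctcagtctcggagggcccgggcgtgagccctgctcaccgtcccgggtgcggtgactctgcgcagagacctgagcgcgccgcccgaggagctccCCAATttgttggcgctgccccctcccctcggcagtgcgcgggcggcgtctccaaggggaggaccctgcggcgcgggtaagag
Col1a2, chr6:4505368-4505667, plus strand: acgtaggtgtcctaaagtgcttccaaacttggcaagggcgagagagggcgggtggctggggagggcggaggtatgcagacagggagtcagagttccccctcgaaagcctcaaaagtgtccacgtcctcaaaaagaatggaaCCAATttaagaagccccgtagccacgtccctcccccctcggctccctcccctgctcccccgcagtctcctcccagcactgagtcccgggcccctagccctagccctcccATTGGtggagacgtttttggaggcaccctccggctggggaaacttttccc
Col18a1, chr10:77113656-77113955, minus strand: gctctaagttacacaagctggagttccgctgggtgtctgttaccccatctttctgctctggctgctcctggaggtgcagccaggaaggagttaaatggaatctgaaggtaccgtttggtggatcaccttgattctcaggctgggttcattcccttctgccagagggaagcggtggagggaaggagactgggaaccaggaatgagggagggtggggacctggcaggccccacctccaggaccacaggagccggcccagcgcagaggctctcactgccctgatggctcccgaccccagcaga
Col18a1, chr10:77166481-77166780, minus strand: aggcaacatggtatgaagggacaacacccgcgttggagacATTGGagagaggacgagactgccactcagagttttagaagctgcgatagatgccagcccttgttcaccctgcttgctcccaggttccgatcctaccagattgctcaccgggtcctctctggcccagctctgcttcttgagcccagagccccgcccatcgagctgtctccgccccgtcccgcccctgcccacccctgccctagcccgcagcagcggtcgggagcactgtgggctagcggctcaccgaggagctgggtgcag
Col23a1, chr11:51289670-51289969, plus strand: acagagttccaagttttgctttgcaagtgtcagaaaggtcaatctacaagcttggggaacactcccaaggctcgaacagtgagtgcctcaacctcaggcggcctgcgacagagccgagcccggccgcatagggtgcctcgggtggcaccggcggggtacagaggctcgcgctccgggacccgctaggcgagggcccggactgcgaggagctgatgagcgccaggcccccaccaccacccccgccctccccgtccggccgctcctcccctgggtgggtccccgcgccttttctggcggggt
The annotated transcripts of Col4a1 and Col4a2 overlap by 22 bases at their starts (11312826 on the minus strand and 11312805 on the plus strand), and their windows share 78 bases. Col4a2 has CCAAT at position -32 from its start, and Col4a1 has it at -145 on the opposite strand. CCAAT was found in 13 of the 35 collagen genes with a window (37.1%), against 37.4% of all 32851 windows. TATAAA was found in 5 (14.3%, against 13.6%). The GC box GGGCGG was found in 22 (62.9%, against 35.7%) and the AP-1 motif TGANTCA, where N is any base, in 1 (2.86%, against 7.81%). All were searched on both strands, the motifs do not overlap each other by design, and a gene with several windows counted once if any held the motif, which the share over all windows does not allow for. No window was matched for Col12a1, Col14a1, Col1a1, Col22a1, Col26a1, Col2a1, Col4a3, Col5a2 and Col9a3.

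Among the fibrillar chains, types III and I dominated the pool, and their levels did not separate the genotypes. Col3a1 (chr1:45311538-45349706, GENCODE M21 on GRCm38), the only chain of type III collagen, had 2026, 1059.8 and 264 CPM in KO 1, KO 2 and KO 3, against 1272, 932 and 2279 CPM in WT 1, WT 2 and WT 3. KO 1 stood close to the highest WT library and KO 3 far under the lowest. Its log2 fold change was -0.42 ± 0.64 (SE; edgeR adjusted p = 0.818), 0.05 without KO 3 and -1.17 without KO 1. Col1a1 (chr11:94936224-94953042), which gives the larger share of chains to the type I molecule, had 787, 413 and 109.9 CPM in KO 1 to KO 3, against 455, 327 and 714 CPM in WT 1 to WT 3. Its partner Col1a2 (chr6:4504814-4541544) had 832, 438 and 124 CPM in KO 1 to KO 3, against 530.3, 429.7 and 795 CPM in WT 1 to WT 3. In both genes KO 1 was above every WT library, KO 2 inside the WT range and KO 3 below it. The log2 fold changes were -0.19 ± 0.61 for Col1a1 and -0.33 ± 0.58 for Col1a2 (edgeR adjusted p = 0.918 and 0.843), and without KO 3 they turned to 0.27 and 0.12.

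The type V chains, which join type I fibrils and regulate their assembly, differed among themselves. Col5a1 had 258, 142 and 39.8 CPM in KO 1 to KO 3, against 207, 141 and 248.7 CPM in WT 1 to WT 3 (log2 fold change -0.44 ± 0.55, and 0.0089 without KO 3). Col5a2 had 180.0, 113 and 37.5 CPM in KO 1 to KO 3, against 148, 117 and 208 CPM in WT 1 to WT 3 (-0.52 ± 0.48, and -0.10 without KO 3). Both had KO 1 within or above the WT range and KO 3 below it. Col5a3 (chr9:20770050-20815067), the least abundant type V chain, had 29.1, 19.3 and 6.28 CPM in KO 1 to KO 3, against 67.8, 29.3 and 31.4 CPM in WT 1 to WT 3. Every KO library lay below every WT library, KO 1 only just, and WT 1 stood above the other WT libraries. Its log2 fold change was -1.23 ± 0.53 (edgeR unadjusted p = 0.0486, adjusted p = 0.382), -0.82 without KO 3 and -0.74 without WT 1.

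**Figure D3:**
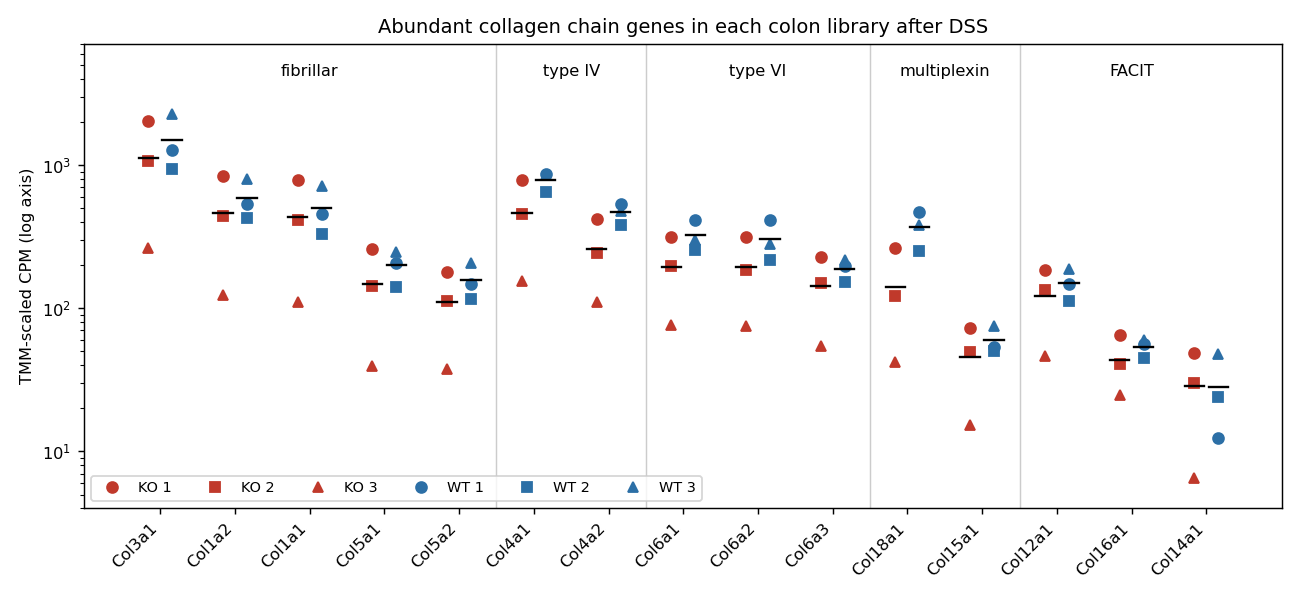
TMM-scaled CPM on a log axis (y) of the abundant collagen chain genes (x), with a point for each KO and WT library. KO 3 is the lowest point in most columns, while KO 1 mixes with the WT libraries, as for Col3a1 with 2026 CPM in KO 1 and 264 CPM in KO 3 against 932 to 2279 CPM in WT.

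The remaining fibrillar chains were low. Col27a1, a chain best known from cartilage, had 9.45, 7.31 and 6.98 CPM in KO 1 to KO 3, against 13.7, 7.95 and 12.4 CPM in WT 1 to WT 3 (-0.52 ± 0.26, and -0.43 without KO 3). Col24a1, Col11a1 and Col11a2 stayed below 2 CPM in every library, with 86 to 139 counts each in all, and Col2a1, the cartilage fibril chain, had 0 counts everywhere. In Col11a2 every KO library was below every WT library, but the highest KO value, 0.751 CPM in KO 3, was next to the lowest WT value, 0.786 CPM in WT 3. Over the 10 fibrillar chains tested the median log2 fold change was -0.48, and -0.05 without KO 3.

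The major type IV chains were lower in KO 3 and KO 2 than in any WT library, and KO 1 lay inside the WT range for Col4a1 and Col4a2. Col4a1 (chr8:11198423-11312826), whose start region is printed above, had 781, 454 and 155 CPM in KO 1 to KO 3, against 862, 646 and 845 CPM in WT 1 to WT 3. Col4a2 (chr8:11312805-11449287), its partner in the basement membrane network found in nearly all tissues, had 423, 245 and 109.7 CPM in KO 1 to KO 3, against 536, 384 and 479.8 CPM in WT 1 to WT 3. The log2 fold changes were -0.76 ± 0.49 and -0.85 ± 0.43 (edgeR adjusted p = 0.552 and 0.441), and -0.34 and -0.48 without KO 3. Neither passed the test, with or without KO 3.

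Col4a5 and Col4a6, which together form the type IV network around smooth muscle cells, showed another order. Col4a5 had 30.6, 22.7 and 4.08 CPM in KO 1 to KO 3, against 15.5, 12.4 and 19.6 CPM in WT 1 to WT 3. KO 1 and KO 2 lay above every WT library and KO 3 below every WT library. The log2 fold change was 0.27 ± 0.58, and 0.75 without KO 3 (edgeR unadjusted p = 0.0165, adjusted p = 0.316), where it was the 1 collagen gene higher at an unadjusted p below 0.05, beside 4.31% of all genes. The sign turned without KO 1 (-0.24) and in limma-voom (-0.14). Col4a6, its neighbour on chromosome X, had 13.3, 7.06 and 2.84 CPM in KO 1 to KO 3, against 7.65, 9.58 and 6.96 CPM in WT 1 to WT 3 (-0.06 ± 0.48, 0.34 without KO 3 and -0.71 without KO 1). Of the 10 smooth muscle markers, 1 had a fold change below 0 (45.8% of all genes) and 6 were higher at an unadjusted p below 0.05 (5.17% of all genes), with 0 called higher by edgeR (0.00687%) and 3 by DESeq2 (0.804%). The sum of these markers was higher in each KO library than in each WT library, while Col4a5 and Col4a6 were at their lowest in KO 3. Col4a3 and Col4a4, the chains of kidney and lung basement membranes, had 38 and 23 counts over all libraries and were not tested.

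Type VI chains, which form beaded filaments next to cells, had 5 members tested. All 5 estimates were below 0 in each of the fits with all libraries, without KO 3 and without KO 1. Of all genes, 45.8% were below 0 with all libraries and 46.9% without KO 3, and their median without KO 1 was 0.03. Col6a1 had 312, 196 and 76.8 CPM in KO 1 to KO 3, against 414, 255 and 299 CPM in WT 1 to WT 3 (-0.73 ± 0.44, and -0.35 without KO 3; edgeR adjusted p = 0.528). Col6a2, its neighbour on chromosome 10, had 317, 186 and 75.5 CPM in KO 1 to KO 3, against 409.8, 218 and 281 CPM in WT 1 to WT 3 (-0.65 ± 0.47, and -0.27 without KO 3; edgeR adjusted p = 0.597). KO 1 was inside the WT range for both, and KO 2 and KO 3 were below it. Col6a3, the longest chain of the classical molecule, had 227, 149 and 54.4 CPM in KO 1 to KO 3, against 198, 153 and 216 CPM in WT 1 to WT 3 (-0.40 ± 0.43, and -0.0037 without KO 3). The chains that can stand in for it were lower in level, with Col6a4 at 10.2 to 31.8 CPM in KO and 26.6 to 37.2 CPM in WT, and Col6a5 at 0.912 to 4.78 CPM in KO and 2.78 to 6.98 CPM in WT. None of the 5 reached an unadjusted edgeR p below 0.05 with all libraries or without KO 3. Without KO 1, Col6a1, Col6a2, Col6a4 and Col6a5 were lower at that threshold, beside 10.1% of all genes. Without WT 1, Col6a5 was, beside 6.12%. Col6a6 had 26 counts in all and was not tested.

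The multiplexins, collagens bound to heparan or chondroitin sulfate at basement membranes, split. Col18a1 (chr10:77052178-77166548), the precursor of endostatin, had 262, 121 and 41.9 CPM in KO 1 to KO 3, against 466, 252 and 381 CPM in WT 1 to WT 3. KO 1 was just above the lowest WT library, WT 2, and KO 2 and KO 3 were below all of WT. The mean was 142 ± 112 CPM in KO and 367 ± 108 CPM in WT (SD, n = 3 each). The log2 fold change was -1.37 ± 0.57 (edgeR unadjusted p = 0.0411, adjusted p = 0.362). It was -0.94 without KO 3 (edgeR unadjusted p = 0.0420, adjusted p = 0.412) and -2.17 without KO 1 (edgeR adjusted p = 0.101), so the estimate kept its sign but did not pass the adjusted threshold. Col15a1, the related chain of vessel and muscle basement membranes, had 72.4, 49.1 and 15.3 CPM in KO 1 to KO 3, against 54.0, 50.3 and 75.1 CPM in WT 1 to WT 3 (-0.39 ± 0.47, and 0.025 without KO 3). The TPM ratio of Col18a1 to Col15a1 was 3.91, 2.50 and 1.54 in KO 1 to KO 3, against 7.99, 5.50 and 5.34 in WT 1 to WT 3, without overlap. By counts it was 3.62, 2.47 and 2.73 in KO 1 to KO 3, against 8.63, 5.02 and 5.08 in WT 1 to WT 3. The groups again did not overlap, but KO 3 was no longer the lowest. This pair was set side by side after its values had been seen, so the ratio has no test.

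FACIT chains sit on the surface of larger fibrils, and none stood apart by genotype except the low Col20a1. Col12a1, which coats type I fibrils, had 185, 134 and 46.2 CPM in KO 1 to KO 3, against 148, 112 and 187 CPM in WT 1 to WT 3 (-0.29 ± 0.44, and 0.10 without KO 3). Col16a1 had 64.9, 40.9 and 25.0 CPM in KO 1 to KO 3, against 56.1, 45.1 and 59.6 CPM in WT 1 to WT 3 (-0.30 ± 0.31, and -0.017 without KO 3). In both, KO 1 and KO 3 lay on opposite sides of the WT median. Col14a1, expressed by certain fibroblasts, varied widely within each genotype, with 48.6, 30.2 and 6.49 CPM in KO 1 to KO 3, against 12.4, 23.8 and 48.1 CPM in WT 1 to WT 3 (0.02 ± 0.68, 0.49 without KO 3 and -0.61 without KO 1). Col20a1 had 4.57, 3.53 and 2.42 CPM in KO 1 to KO 3, against 6.20, 5.50 and 5.45 CPM in WT 1 to WT 3. The groups did not overlap, and the log2 fold change was -0.70 ± 0.29 (edgeR unadjusted p = 0.0415, adjusted p = 0.364), or -0.49 without KO 3. Col9a2 and Col22a1 were tested at 0.376 to 2.95 CPM in KO and 0.408 to 3.46 CPM in WT. Col9a1 and Col9a3, cartilage chains, had 16 and 52 counts in all and were not tested, and Col19a1 had 0 counts.

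Transmembrane collagens span the cell membrane with a collagenous part outside. Col23a1 (chr11:51289920-51583918), which can be shed from the cell surface, had 17.9, 11.6 and 9.02 CPM in KO 1 to KO 3, against 27.9, 28.6 and 19.5 CPM in WT 1 to WT 3. All KO libraries lay below all WT libraries, and the nearest values were those of KO 1 and WT 3. The mean was 12.8 ± 4.56 CPM in KO and 25.3 ± 5.09 CPM in WT (SD, n = 3 each). The log2 fold change was -0.98 ± 0.28 (edgeR unadjusted p = 0.00802, adjusted p = 0.217), and -0.78 without KO 3 (edgeR unadjusted p = 0.0209, adjusted p = 0.334). DESeq2 gave an adjusted p of 0.0321 on the same counts, and the authors' deposited table lists a false discovery rate of 0.0393, the 1 collagen gene below 0.05 there (1.93% of all rows were below it and lower in KO, and 0.457% were below it and higher). Col23a1 was thus past the threshold by DESeq2 and in the authors' deposited table but not by edgeR or limma-voom (limma-voom adjusted p = 0.197). The unadjusted p was 0.00103 by DESeq2 and also in the authors' deposited table, so the 2 are not separate support. The 1 gene was 2.94% of the collagens tested by DESeq2, against 2.96% of all genes. In the authors' deposited table it was 2.27% of the collagens, against 1.93% of all rows. Both shares were near those of all genes. Col13a1 (1.07 to 4.31 CPM in KO, 3.31 to 4.58 CPM in WT) and Col25a1 (0.976 to 1.73 CPM in KO, 1.53 to 2.13 CPM in WT) had fold changes of -0.43 ± 0.47 and -0.23 ± 0.37, or -0.027 and -0.36 without KO 3. Col17a1, the hemidesmosome collagen of stratified epithelium, had 53 counts in all, 24 of them in WT 3, and was not tested.

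Over all classes, 4 of the 34 genes had every KO value below every WT value (Col11a2, Col20a1, Col23a1 and Col5a3), or 11.8%, against 10.2% of all genes tested. In 0 of 34 was every KO value above every WT value, against 9.35% of all genes. The first share was near that of all genes.

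Col7a1, which forms the anchoring fibrils of skin and other stratified epithelia, was low and scattered, with 2.21, 0.682 and 0.429 CPM in KO 1 to KO 3, against 8.04, 1.38 and 3.26 CPM in WT 1 to WT 3. KO 1 lay above WT 2, and WT 1 stood far above the rest. The log2 fold change was -1.92 ± 0.76 (edgeR unadjusted p = 0.0357, adjusted p = 0.350) -1.53 without KO 3 and -1.05 without WT 1 (edgeR unadjusted p = 0.190). Mesothelial markers, 4 of 5 of them tested, also summed highest in WT 1, with 11.1, 11.1 and 8.80 CPM in KO 1 to KO 3, against 30.9, 7.95 and 14.3 CPM in WT 1 to WT 3. Msln and Upk3b carried that sum, at 15.8 and 10.9 CPM in WT 1, while Lrrn4 and Wt1 were highest in WT 3. The part of these markers in the Col7a1 values was not tested.

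The short chain network formers had both tested estimates above 0, as did Col28a1. Col8a1, a collagen of vascular cells, had 18.8, 21.5 and 8.05 CPM in KO 1 to KO 3, against 7.78, 7.08 and 17.5 CPM in WT 1 to WT 3. KO 1 and KO 2 exceeded every WT library, while KO 3 was close to WT 1 and WT 2. The log2 fold change was 0.58 ± 0.45 (edgeR adjusted p = 0.628), and 0.91 without KO 3 (edgeR unadjusted p = 0.0513). Col8a2, the second type VIII chain, had 3.18, 2.85 and 2.25 CPM in KO 1 to KO 3, against 1.37, 1.48 and 2.53 CPM in WT 1 to WT 3 (0.63 ± 0.35, and 0.76 without KO 3). Both chains had WT 3 as the highest WT library, and neither passed the test. Col10a1, the chain of growth plate cartilage, had 2 counts in all. Col28a1, a chain known from peripheral nerve, had 3.60, 5.39 and 2.95 CPM in KO 1 to KO 3, against 2.48, 2.60 and 4.43 CPM in WT 1 to WT 3 (0.33 ± 0.36, and 0.50 without KO 3). Col26a1 had 4, 3 and 3 counts in KO 1 to KO 3 and 0 in each WT library, where a count of 0 allows up to 3 counts per library, so no fold is given.

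Because the total collagen level differed so much between libraries, the makeup of the pool within each library gives a second view. By TPM, which is per length and allows chains to be compared, Col3a1 made up 28.3% of collagen RNA on average over the 6 libraries, Col4a1 11.01%, Col1a2 10.8% and Col1a1 8.31%. The 8 most abundant chains, with Col6a1, Col6a2, Col4a2 and Col18a1, together gave 83.6%. Fibrillar chains took 59.6%, 58.0% and 50.9% of collagen TPM in KO 1 to KO 3, against 47.7%, 47.2% and 60.0% in WT 1 to WT 3. Type IV chains took 15.96%, 15.6% and 17.0% in KO 1 to KO 3, against 18.8%, 22.4% and 16.3% in WT 1 to WT 3. In both classes WT 3 resembled the KO libraries and the groups overlapped. Multiplexins took 5.40%, 4.69% and 5.38% in KO 1 to KO 3, against 9.37%, 7.91% and 6.79% in WT 1 to WT 3. Short chain network formers took 0.347%, 0.683% and 0.827% in KO 1 to KO 3, against 0.156%, 0.218% and 0.297% in WT 1 to WT 3. These 2 classes were the ones of 9 whose shares did not overlap between genotypes, in opposite directions. No test was made of the shares, and they have no background over all genes. The short chain share was highest in KO 3, the library with the least collagen. There Col8a1 itself was at 8.05 CPM, inside the WT range of 7.08 to 17.5 CPM. The multiplexin share followed Col18a1, which took 3.26% to 4.30% of collagen TPM in KO and 5.72% to 8.33% in WT. Col15a1, the other multiplexin, overlapped, at 1.10% to 2.11% in KO and 1.04% to 1.22% in WT.

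**Figure D4:**
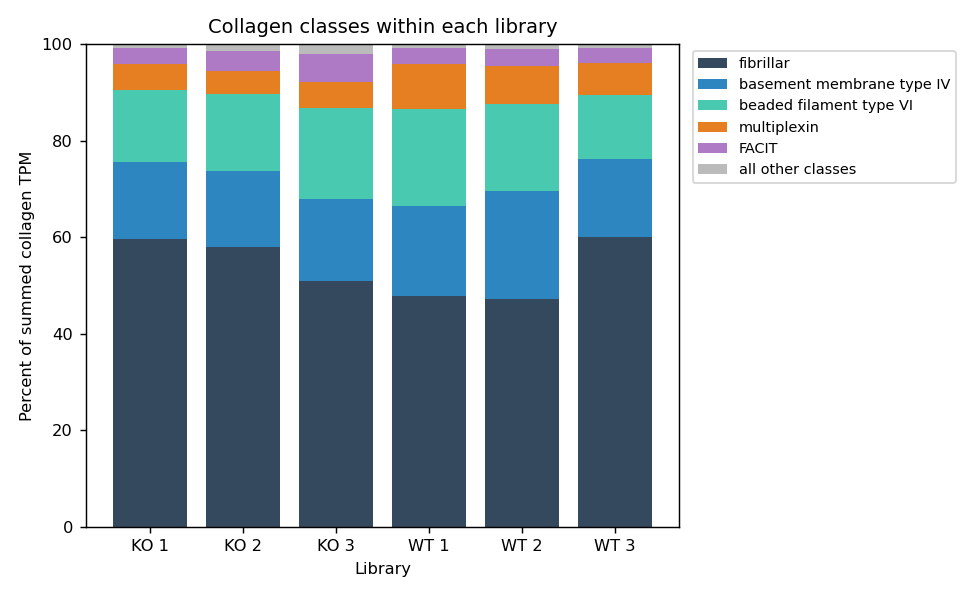
Stacked percent of summed collagen TPM (y axis, from 0) by class in each library (x axis, KO 1 to KO 3 then WT 1 to WT 3). The multiplexin band spans 4.69% to 5.40% in KO and 6.79% to 9.37% in WT, although KO 3 holds far less collagen in all.

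The same view for single genes used the percent of all collagen counts, a scale added after the data had been seen. Col18a1 was 3.77%, 3.10% and 3.36% of collagen counts in KO 1 to KO 3, against 7.80%, 5.94% and 5.23% in WT 1 to WT 3. It was the 1 collagen gene of 34 with every KO value below every WT value on this scale (1.27% of all genes were). On this scale KO 3 no longer stood apart, and the KO mean was 0.539 of the WT mean. Col12a1, Col4a5, Col8a1 and Col8a2 had every KO value above every WT value (11.8%, against 3.17% of all genes). The shares of all genes are not a like background on this scale. Dividing genes outside the pool by collagen counts brings in the spread of the pool between libraries. No conclusion is drawn from these shares. Col8a1 was 0.270%, 0.551% and 0.645% of collagen counts in KO 1 to KO 3, against 0.130%, 0.167% and 0.240% in WT 1 to WT 3. Col12a1 was 2.66%, 3.43% and 3.70% in KO 1 to KO 3, against 2.48%, 2.63% and 2.57% in WT 1 to WT 3, with KO 1 close to WT 2. Col23a1, lower in KO by CPM, overlapped on this scale, with 0.257%, 0.297% and 0.723% in KO 1 to KO 3, against 0.468%, 0.674% and 0.267% in WT 1 to WT 3.

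**Figure D5:**
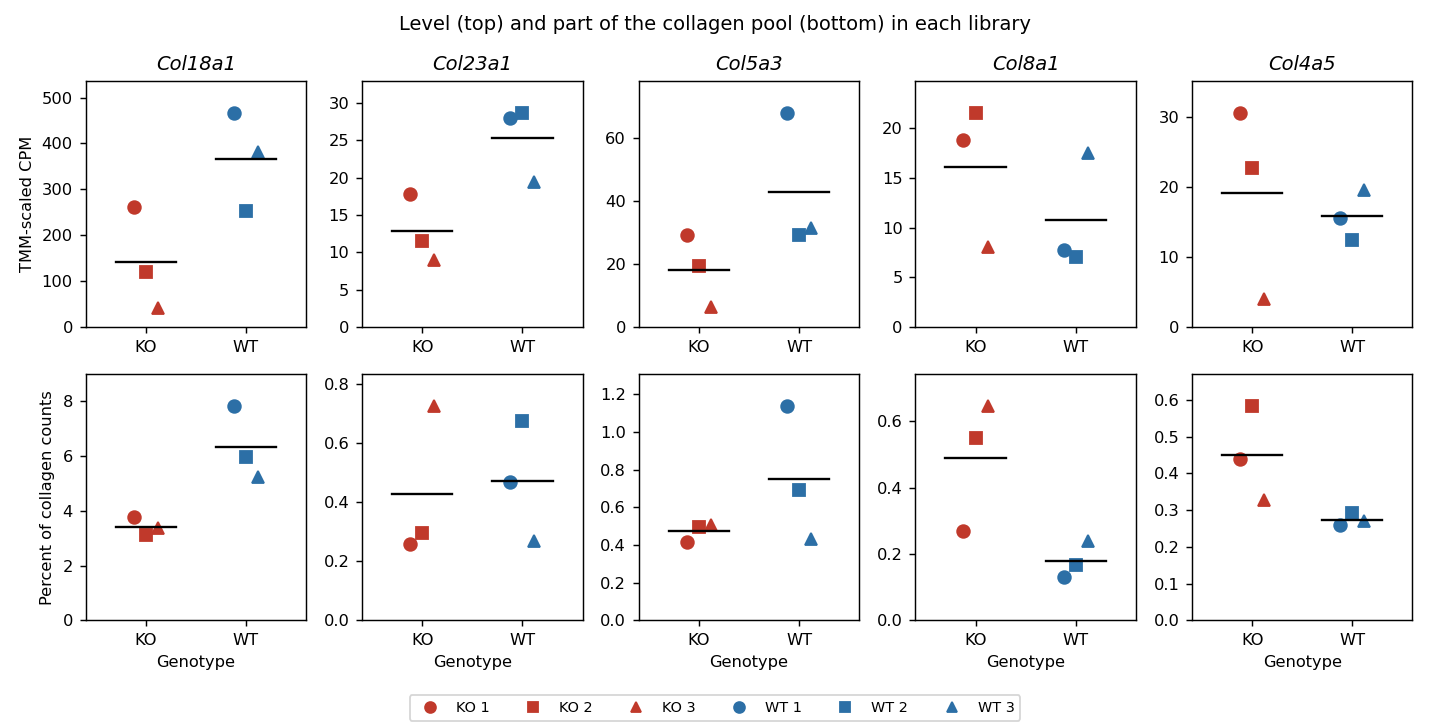
Level in CPM (top row) and percent of collagen counts (bottom row) of selected collagen genes, KO left of WT on each x axis, with a point for each library. Col18a1 separates the genotypes in the bottom row, at 3.10% to 3.77% in KO and 5.23% to 7.80% in WT, while Col23a1 separates them in the top row.

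The proportions of chains that share a molecule were compared within each library for types I, IV and VI. The TPM ratio of Col1a1 to Col1a2 was 0.842, 0.852 and 0.795 in KO 1 to KO 3, against 0.768, 0.657 and 0.712 in WT 1 to WT 3. The groups did not overlap, and the exact two-sided permutation test gave p = 0.1, the smallest that 3 against 3 libraries allow (0.3 adjusted over the 3 pairs). With counts in place of TPM the groups overlapped (exact permutation p = 0.2). Col4a1 to Col4a2 ran from 1.45 to 1.996 in KO and from 1.62 to 1.94 in WT (exact permutation p = 0.7). Col6a1 to Col6a2 ran from 0.961 to 1.03 in KO and from 0.985 to 1.14 in WT (exact permutation p = 0.3). Over the same libraries the TPM of the first chain of each pair differed between KO 1 and KO 3 by 7.82, 5.78 and 4.43 times, more than their ratios did. Lower chains varied more in proportion. Col8a1 to Col8a2, a pair looked at after the data had been seen, had a ratio of 5.01, 6.40 and 3.03 in KO 1 to KO 3, against 4.83, 4.07 and 5.88 in WT 1 to WT 3, where Col8a1 itself differed by 2.55 times between KO 1 and KO 3. Col4a5 to Col4a6, likewise added, ran from 2.28 to 3.33 in KO and from 1.33 to 2.98 in WT.

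The enzymes and proteins that make, cut and read collagen were followed in lists of known members, with the number tested given for each list. At an adjusted p below 0.05 edgeR called 0 of them (0.151% of all genes were called lower and 0.00687% higher). DESeq2 called 2 lower, Mmp8 and Mmp13, and 0 higher (2.96% of all genes were called lower and 0.804% higher). Of the 14 genes for hydroxylation and glycosylation of the chains, 12 had a fold change below 0 (45.8% of all genes), with a median of -0.28, or -0.13 without KO 3, and 1 was lower at an unadjusted p below 0.05 (7.85% of all genes). That was P3h1, a prolyl 3-hydroxylase, with 13.9, 8.67 and 6.17 CPM in KO 1 to KO 3, against 21.6, 13.2 and 17.6 CPM in WT 1 to WT 3 (-0.86 ± 0.32, and -0.63 without KO 3; edgeR adjusted p = 0.326). Its relative P3h2 had 12.8, 11.5 and 7.51 CPM in KO 1 to KO 3, against 16.4, 13.5 and 14.7 CPM in WT 1 to WT 3, without overlap (-0.49 ± 0.24, and -0.29 without KO 3). Of the 8 genes for folding and export, 4 were below 0 (45.8% of all genes), and the median was 0.04, or 0.06 without KO 3. Serpinh1, the collagen chaperone HSP47, had 241, 168 and 117 CPM in KO 1 to KO 3, against 265, 220 and 247 CPM in WT 1 to WT 3 (-0.48 ± 0.25, and -0.25 without KO 3). Fkbp10, a prolyl isomerase that acts on procollagen, had 23.2, 15.4 and 10.6 CPM in KO 1 to KO 3, against 28.5, 18.2 and 24.8 CPM in WT 1 to WT 3 (-0.54 ± 0.30, and -0.30 without KO 3). For both genes KO 3 was lowest, and KO 1 lay inside the WT range.

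Propeptide removal had 7 genes tested of 8, all 7 below 0 (45.8% of all genes), with a median of -0.63, or -0.41 without KO 3, and 2 lower at an unadjusted p below 0.05 (7.85% of all genes). Tll1, a protease of the BMP1 family that removes the C-propeptide, had 0.925, 0.867 and 0.268 CPM in KO 1 to KO 3, against 1.71, 1.53 and 3.14 CPM in WT 1 to WT 3 (-1.62 ± 0.53, and -1.23 without KO 3; edgeR adjusted p = 0.264). Adamts14, which removes the N-propeptide, had 1.95, 0.991 and 1.07 CPM in KO 1 to KO 3, against 5.52, 1.68 and 3.37 CPM in WT 1 to WT 3 (-1.39 ± 0.49, and -1.25 without KO 3; edgeR adjusted p = 0.305). Tll1 did not overlap between genotypes, while Adamts14 did, through KO 1. All 5 crosslinking enzymes tested were below 0 (45.8% of all genes), with a median of -0.56, or -0.29 without KO 3. By edgeR 0 of them were lower at an unadjusted p below 0.05 (7.85% of all genes), and DESeq2 called 0. Lox, the lysyl oxidase, had 26.4, 18.4 and 2.36 CPM in KO 1 to KO 3, against 40.6, 26.6 and 52.8 CPM in WT 1 to WT 3 (-1.35 ± 0.68, and -0.84 without KO 3). Loxl2, a related oxidase, had 129, 86.1 and 30.2 CPM in KO 1 to KO 3, against 183, 109.9 and 146 CPM in WT 1 to WT 3 (-0.84 ± 0.45, and -0.44 without KO 3). KO 3 was the lowest library for both. Lox did not overlap between genotypes, although KO 1 came close to WT 2, and Loxl2 did, through KO 1.

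The genes of collagen breakdown and uptake held the largest fold changes of these lists. Of 9 tested, 8 were below 0 (45.8% of all genes), with a median of -1.01, or -0.59 without KO 3. At an unadjusted p below 0.05, 2 were lower (7.85% of all genes), and DESeq2 called those 2 lower (2.96% of all genes). Mmp13, a collagenase of fibrillar collagen, had 17.3, 20.5 and 9.18 CPM in KO 1 to KO 3, against 149, 55.0 and 55.9 CPM in WT 1 to WT 3 (-2.47 ± 0.46, and -2.20 without KO 3; edgeR adjusted p = 0.0848). Mmp8, the neutrophil collagenase, had 0.976, 0.620 and 0.161 CPM in KO 1 to KO 3, against 16.4, 10.4 and 4.88 CPM in WT 1 to WT 3 (-4.16 ± 0.64, and -3.71 without KO 3; edgeR adjusted p = 0.0595). Neither overlapped between genotypes, with KO 1 and KO 2 also far below the lowest WT library, and the level of Mmp8 in KO 3 came from 3 counts. The leukocyte markers cover several cell types, and none is a marker of neutrophils alone. They summed to 671, 564 and 442 CPM in KO 1 to KO 3 and to 607, 925 and 1026 CPM in WT 1 to WT 3. The part of neutrophil content in the Mmp8 values was not tested.

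Of the collagen receptors, 8 of 9 were tested and 6 were below 0 (45.8% of all genes), with a median of -0.23, or -0.014 without KO 3, and 2 were lower at an unadjusted p below 0.05 (7.85% of all genes). Lair1, an inhibitory collagen receptor of leukocytes, had 6.42, 5.45 and 3.70 CPM in KO 1 to KO 3, against 7.70, 9.07 and 8.36 CPM in WT 1 to WT 3 (-0.69 ± 0.26, and -0.49 without KO 3; edgeR adjusted p = 0.332). Ddr2, a receptor tyrosine kinase that binds fibrillar collagen, had 32.3, 44.7 and 20.8 CPM in KO 1 to KO 3, against 51.9, 44.01 and 55.2 CPM in WT 1 to WT 3 (-0.63 ± 0.26, and -0.39 without KO 3; edgeR adjusted p = 0.372). Lair1 did not overlap between genotypes, and Ddr2 did, through KO 2 and WT 2.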

How the data were processed

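Colon RNA was sequenced in 3 KO and 3 WT libraries. Per the labels' protocols, Trizol served for extraction and a SMARTER mRNA-Seq kit for library construction. GRCm38, mm10 and mm39 appear in the submitters' processing notes. The program that aligned and counted, its annotation and its strand setting are not given, so reads of overlapping or antisense genes cannot be told apart. Of the 44 collagen genes, 13 share an exonic base with another gene in GENCODE M21 and 0 share over 10% of their exonic bases.

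The deposited counts are whole numbers per gene and library and were used as they stand. The TPM values were computed by the authors and served for class shares, chain ratios and an alternative test on log2(TPM + 1). The counts behind 1 TPM differed more than 2 times between libraries for 4 of the 34 collagen genes tested (Col22a1, Col24a1, Col11a1 and Col6a4), so the TPM of these low members is uncertain. Smaller differences were present in others, as 1.84 times for Col15a1, 1.58 for Col4a5, 1.56 for Col12a1 and 1.43 for Col3a1. The authors' deposited false discovery rate is quoted only where named, and no tool is given for it or for the deposited p-value and log2 fold change.

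The main test was edgeR 4.0.16 in R 4.3.3: TMM factors, default expression filter by genotype (14553 genes, 34 of them collagens), quasi-likelihood F-test, Benjamini-Hochberg adjustment over all genes, called at an adjusted p below 0.05. The biological coefficient of variation was 29.0%. Fold changes are KO over WT on the log2 scale with an approximate SE. The script was tested on simulated counts. DESeq2 1.42.0, limma 3.58.1 (voom, and log2 of TPM with pseudocounts of 1 and 0.1), other scalings and filters, a replicate block and leaving out each library were alternatives. All pairs of libraries of a genotype differed far beyond counting noise (chi-square per degree of freedom 42.95 to 193.57).

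The members, classes and lists were chosen with earlier results of these data known. Values in every library are given for members with a mean of at least 10 TPM, with an unadjusted edgeR p below 0.05, or highest in their class, and for the 2 genes with the smallest p of each other list. Col4a5, Col4a6, Col8a2 and Col27a1 fall outside this rule and were chosen after their values were seen. Promoter windows are from RefSeq (GRCm38.p6).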

Additional observations from a re-analysis of the deposited data

How the results depend on the processing

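With all 6 libraries edgeR called 23 genes in all, 1 higher and 22 lower in KO. The number was 9 with median-ratio factors, 39 with upper-quartile factors, 69 with no filter on low counts, 548 with DESeq2, 68 with limma on log2(TPM + 1), 47 on log2(TPM + 0.1), and 1 to 29 when each library was left out (29 without KO 1, 1 without KO 2, 3 without KO 3, 6, 5 and 6 without WT 1, WT 2 and WT 3). Collagen calls were 0 in these fits except DESeq2, which called 1 (Col23a1, log2 fold change -0.98). The median collagen log2 fold change stayed below 0 throughout, at -0.94 to -0.19 with each library left out, and collagens at an unadjusted p below 0.05 in either direction numbered 1 (without KO 2) to 13 (without KO 1). Replicate numbers are shared between genotypes, and the labels do not say whether they pair the libraries. Same-numbered libraries deviated against each other (correlations -0.419, -0.150 and -0.429). This cannot settle the pairing, because deviations from the mean of 3 libraries depend on each other within a genotype. A fit with the replicate block called 81 genes and 0 collagens.

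Over 21 named collagens and 15 alternative fits, 297 of 315 fold changes kept their direction and their side of the threshold, 1 passed it (Col23a1) and 17 reversed, the cause of which was not tested. Leaving out each library gave -0.73 to 0.10 for Col12a1, -0.89 to 0.025 for Col15a1, -0.93 to 0.27 for Col1a1, -1.06 to 0.12 for Col1a2, -1.17 to 0.047 for Col3a1, -1.13 to 0.0089 for Col5a1 and -0.61 to 0.65 for Col14a1. Values above 0 came without KO 3, and for Col1a1 (0.16), Col3a1 (0.02) and Col14a1 (0.65) also without WT 3. Col14a1, at 0.02 with all libraries, was -0.027 with upper-quartile factors, -0.16 with limma-voom, -0.18 on log2(TPM + 1), -0.25 on log2(TPM + 0.1) and -0.063 with the replicate block. The log2 difference of the Col4a1 to Col4a2 ratio was -0.06 with TPM, 0.0081 with counts and -0.16 to 0.065 with each library left out. Relative to collagen counts in place of CPM, the KO to WT ratio moved to 0.906 from 0.506 for Col23a1 and to 0.627 from 0.425 for Col5a3, whereas Col18a1 went to 0.539 from 0.387. With 3 libraries a genotype and a low KO 3, differences of the size of the median collagen shift lay inside the spread between libraries.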
